A study of Mus musculus with 6 samples.

Results

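The genes of the mature skeletal muscle fibre were followed in mouse skin across 6 single-colour Affymetrix arrays. The set is a list of 38 genes of contraction, calcium handling and energy supply, of which 34 had a probe set that the platform annotation gives to that gene alone, out of 12393 genes named in this way on the array. Where a gene had several probe sets, it was represented by the probe set whose mean log2 value was highest. Mybpc1, Mybpc2, Neb and Ampd1 were without such a probe set and are not analysed here.

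All mice were C57BL/6, with no age given, and carried a subcutaneous pump for 7 days. One array each was made of skin at the outlet of a pump filled with PBS (PBS outlet), of abdominal skin far from a PBS pump (distal), of outlet skin under IL-13 and of outlet skin under TSLP, and TGF-beta outlet skin had 2 arrays, from mouse 1 and mouse 2. The 6 arrays thus fall into 5 groups, and all but TGF-beta have a single array and no replicate error. The sources used here do not say whether both PBS pieces came from 1 animal.

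Mouse skin carries a thin sheet of striated muscle beneath the dermis and fat, the panniculus carnosus, which is built mainly of fast fibres. In a fibre, a nerve impulse opens the voltage sensor and the calcium release channel, calcium leaves the sarcoplasmic reticulum, myosin pulls on actin between the Z-discs, and a calcium pump refills the store. Creatine kinase, glycogen breakdown and glycolysis supply the energy. Fast and slow fibres use different isoforms of many of these proteins, and some isoforms of slow and cardiac muscle are also made in muscle that is growing or repairing.

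The values are MAS5 signals on a linear scale, and array medians lay between 160 and 171. Differences are given in log2(signal + 27.4), on which 1 is 2-fold for bright genes and the change of dim genes is understated. A gene was tested in a comparison if at least 1 of its arrays reached a signal of 165, the median of all values. Of the 34 genes, 32 reached it on at least 1 array and 30 on all 6. The slow and cardiac myosin light chains Myl2 and Myl3 reached it on none. Aqp4 passed only through distal skin, where it is highest, and Casq2 only through outlet skin, where it is higher, so their differences there are partly set by the filter. All 9 keratinocyte marker genes with a probe set reached that signal. In whole pieces of skin, fewer muscle fibres and less of a transcript per fibre cannot be told apart. Precision is limited throughout by how few arrays there are.

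The fibre genes were bright in all 6 pieces of skin, and the total differed by less than 2-fold. Their summed signal was 160604 at the PBS outlet, 151016 in distal skin, 116348 under IL-13, 141874 under TSLP, and 158769 and 101854 in TGF-beta mice 1 and 2. It was thus highest at the PBS outlet, close to that in distal skin, and lowest in TGF-beta mouse 2. Of the slow-fibre markers, Myl2, Myl3 and the slow myosin Myh7 were near the bottom of the scale. Signals of Myl2 were between 4.18 and 40.2, of Myl3 between 3.13 and 32.9 and of Myh7 between 5.58 and 28.5. The other slow-fibre members with a probe set were brighter at the outlet. Signals there ran from 448 to 935 for Casq2 and from 1225 to 3779 for Myoz2. Those of Atp2a2 ran from 2714 to 3266 and those of Mb from 6588 to 9127. Of 10 cardiac muscle genes, 8 stayed under 165 on all arrays, among them the atrial and ventricular markers Myh6, Myl7, Nppa, Tnni3 and Ryr2. The others were brighter, Myl4 from 134 to 1887.5 and Hrc from 777 to 1800, and each also stands on another muscle list used here.

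**Figure D1:**
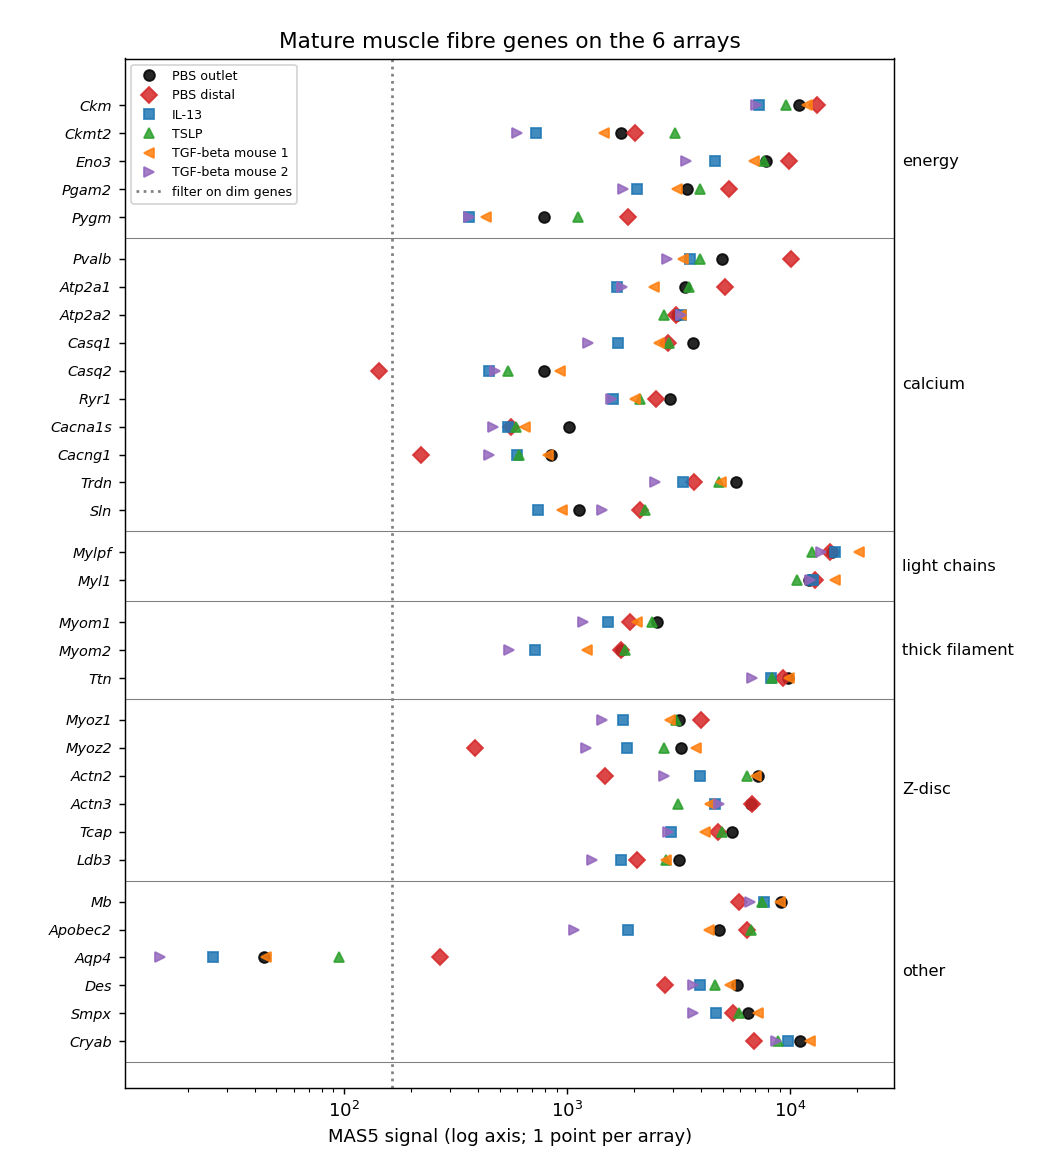
MAS5 signal (log axis) of the 32 muscle fibre genes that reached 165 on at least 1 array, with 1 point per array and the genes grouped by role. Casq2, Cacng1, Myoz2 and Actn2 have their distal point (red diamond) left of all outlet points, Pvalb and Pygm right of them, and Mylpf and Myl1 lie together at the right end.

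The summed fibre signal of distal skin lay within the range of the outlet arrays, while single fibre genes stood well above or below them. Against the mean of the 5 outlet arrays, Pvalb, the calcium buffer of fast fibres, was higher in distal skin by 1.46, while the Z-disc protein gene Myoz2 was lower, at -2.53, as were the slow and cardiac calsequestrin Casq2 at -1.90 and the calcium channel subunit Cacng1 at -1.44. Over the 7945 genes tested, 4212 differences were positive. The 11 fast-fibre members had a median difference of 0.77, with 10 of them positive. The 4 slow-fibre members tested had one of -1.16, with 0 positive but Atp2a2 at only -0.01. Over members that reached the filter on all 6 arrays, which leaves out Aqp4 and Casq2, these medians were 0.76 over 10 genes and -0.42 over 3. Over all 32 members the median was 0.20, against 0.02 over the 7945 genes tested. The members' differences had an SD of 1.01, against 0.52 over all genes. Other cell types moved with this difference. The summed signal of 9 keratinocyte genes was 74542 in distal skin and at most 61609 at the outlet, with all 9 genes higher. That of 7 adipocyte genes was only slightly higher, at 32500.5 against at most 31222, with 6 of the 7 genes higher. The sum of 6 fibroblast genes, 52124 in distal skin, lay inside the outlet range, with all 6 genes lower (median -0.23). The sum of 7 macrophage and neutrophil genes was 11173.5 in distal skin against at least 17610.2, with all 6 tested genes lower. That of 6 satellite cell genes was 380.1 against at least 1054, but 4 of them (Pax7, Myf5, Cdh15 and Calcr) stayed under 165 on all arrays. Only Itga7 and Vcam1 reached it, Vcam1 at the outlet alone, so this sum rests mainly on these genes. The part of these cell types in the members' differences was not tested.

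Distal skin was tested against the 5 outlet arrays, taken as 1 set, with limma and Benjamini-Hochberg adjustment over all 7945 genes. The spread in this test is that of outlet skin under PBS and 3 cytokines, and distal skin adds 1 array. Of the 32 members, 1 passed an adjusted p of 0.05 as higher (Pvalb), where 1.25% of all genes did, and 3 passed as lower (Casq2, Cacng1 and Myoz2), where 2.68% did. By size, 5 members were at least 2-fold higher (1.37% of all genes), namely Aqp4, Pygm, Pvalb, Atp2a1 and Apobec2, and 4 at least 2-fold lower (3.9%), namely Myoz2, Casq2, Actn2 and Cacng1. Apobec2, at 1.04, still lay inside the range of the outlet arrays. Distal skin lay above all 5 outlet arrays for 9 members (26.8% of all genes) and below all of them for 7 (24.9%), shares of the members close to those of all genes. At an unadjusted p under 0.05 the counts were 5 higher (9.14%) and 6 lower (11.3%). All 4 calls are close to the threshold. Of the 4, 0 remained without the IL-13 array and 0 when the outlet arrays were fitted as 4 separate groups, whose spread comes from the TGF-beta mice alone. When every array had to reach the filter, Casq2 left the test and the other 3 were called. Only Pvalb remained without the PBS outlet array or without TSLP, and only Casq2 without TGF-beta mouse 1. None of the 4 differences changed direction in these fits. Over all genes, too, fewer were called in each of these fits than in the main one. Whether the members lost more of their calls than other genes was not tested.

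**Figure D2:**
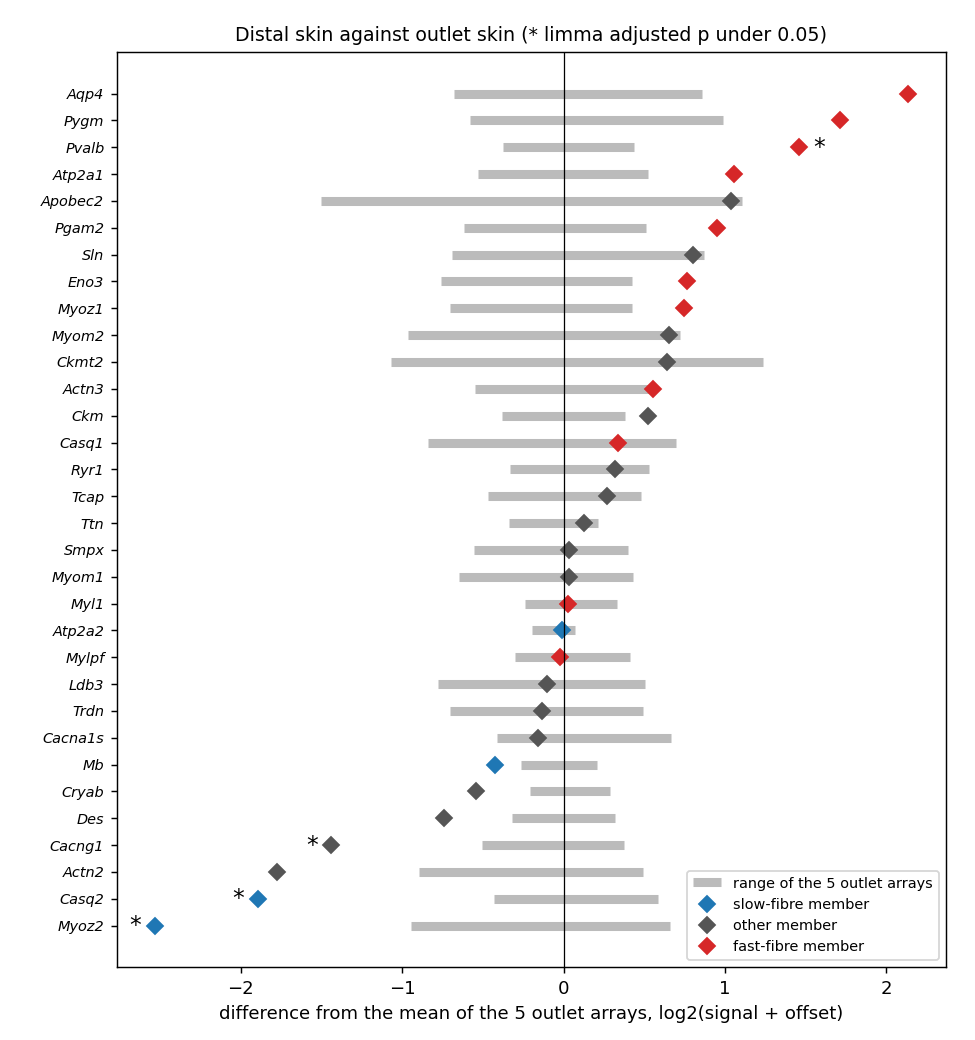
Difference of distal skin from the mean of the 5 outlet arrays in log2(signal + 27.4) for each member (diamonds, coloured by fibre type), with the range of the 5 outlet arrays about their mean (grey bars) and a star where limma's adjusted p is under 0.05. Fast-fibre members gather on the right, and Myoz2, Casq2, Actn2 and Cacng1 stand left of the grey bars.

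The stretches of DNA just before the starts of both members that were lowest and of a pair that was higher in distal skin are shown because these genes differed in opposite directions. They are from RefSeq, GRCm38.p6, and hold the 250 bases before the start, written 5′ to 3′ along the gene. Capitals mark the E-box CANNTG, the site type bound by MyoD-family factors, and the consensus of MEF2, another muscle transcription factor, both searched on either strand. Myoz2 lies on the minus strand with its stretch at chr3:123034988-123035237, Casq2 on the plus strand at chr3:102086165-102086414, Pvalb on the minus strand at chr15:78206401-78206650 (1 of 2 listed starts, shown because it holds a MEF2 match) and Pygm on the plus strand at chr19:6384158-6384407.
Myoz2: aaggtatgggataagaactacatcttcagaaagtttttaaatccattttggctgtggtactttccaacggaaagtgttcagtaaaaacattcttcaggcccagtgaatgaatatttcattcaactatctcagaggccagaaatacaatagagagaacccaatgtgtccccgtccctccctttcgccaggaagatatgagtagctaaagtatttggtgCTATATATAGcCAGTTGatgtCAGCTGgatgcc
Casq2: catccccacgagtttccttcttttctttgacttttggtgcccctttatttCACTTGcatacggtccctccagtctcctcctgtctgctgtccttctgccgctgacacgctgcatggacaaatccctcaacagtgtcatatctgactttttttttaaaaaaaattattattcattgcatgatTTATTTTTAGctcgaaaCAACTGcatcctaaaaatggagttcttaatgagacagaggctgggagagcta
Pvalb: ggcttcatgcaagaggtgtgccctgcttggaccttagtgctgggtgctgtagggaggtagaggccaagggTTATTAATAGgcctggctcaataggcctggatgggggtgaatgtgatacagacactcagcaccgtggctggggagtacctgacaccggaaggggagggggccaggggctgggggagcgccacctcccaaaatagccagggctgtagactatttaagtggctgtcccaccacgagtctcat
Pygm: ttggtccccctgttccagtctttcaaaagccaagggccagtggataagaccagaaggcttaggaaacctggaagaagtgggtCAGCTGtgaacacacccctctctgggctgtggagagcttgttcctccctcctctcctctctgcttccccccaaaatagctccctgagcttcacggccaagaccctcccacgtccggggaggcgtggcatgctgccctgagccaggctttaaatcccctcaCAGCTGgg

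Both of the lower genes, and the printed start of Pvalb, held a MEF2 consensus, which the other start of Pvalb did not, and Pygm held 2 copies of CAGCTG, a form of the E-box. Of the 38 listed genes, 26 were matched to promoters by symbol, with 31 starts, some of which overlap. The other 12 are Actn3, Atp2a2, Neb, Myoz1, Aqp4, Trdn, Cryab, Tcap, Cacng1, Myom2, Sln and Ampd1. A CANNTG stood in 26 of the 31 stretches (83.9%), against 66.2% of all 32851 listed stretches of this length. CAGCTG, counted within CANNTG as well, stood in 16 (51.6%, against 13% of all). The MEF2 consensus stood in 5 (16.1%, against 2.92%), and the CArG box, to which serum response factor binds, in 4 (12.9%, against 1.47%). Overlapping stretches of Ldb3 share the same CArG box, and those of Mb the same CAGCTG, so each of these sites is counted for both stretches. These matches describe the letters in this window and do not show that a factor binds there.

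Among the genes of energy supply, all 5 measured members were higher in distal than in mean outlet skin, as were 4212 of all 7945 genes. Of the 5, 0 passed limma's threshold (1.25% of all genes passed as higher). Pygm encodes muscle glycogen phosphorylase, which releases glucose units from glycogen. Its signal was 794 at the PBS outlet, 1879 in distal skin, 363 under IL-13, 1126 under TSLP, and 434 and 365 in TGF-beta mice 1 and 2. Distal skin was above all outlet arrays, and the difference from their mean was 1.71 (SE 0.57, limma adjusted p = 0.138). Eno3, the muscle enolase, had 7794 at the PBS outlet, 9877 in distal skin, 4614 under IL-13, 7686 under TSLP, and 6919 and 3409.7 in TGF-beta mice 1 and 2, with distal skin again highest and TGF-beta mouse 2 lowest. The mitochondrial creatine kinase Ckmt2 had 1751 at the PBS outlet, 2016 in distal skin, 730.1 under IL-13, 3069 under TSLP, and 1462 and 599 in TGF-beta mice 1 and 2. For Ckmt2 the distal value fell inside the outlet range, whose top was TSLP. Ckm, the cytosolic creatine kinase, and Pgam2, the muscle phosphoglycerate mutase, were also above all outlet arrays in distal skin, with differences of 0.52 and 0.95.

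The calcium-handling members went both ways. Pvalb had 4956 at the PBS outlet, 10099 in distal skin, 3558 under IL-13, 3948 under TSLP, and 3314 and 2808 in TGF-beta mice 1 and 2, so that distal skin was at 2-fold or more over every outlet array (difference from their mean 1.46, SE 0.26, limma adjusted p = 0.0331). The fast calcium pump Atp2a1 had 3379 at the PBS outlet, 5105 in distal skin, 1682 under IL-13, 3522 under TSLP, and 2462 and 1772 in TGF-beta mice 1 and 2, also highest in distal skin (1.05, adjusted p = 0.195). The other pump, Atp2a2, which many cell types share, ran only from 2714 to 3266. Calsequestrins bind calcium within the store, and their isoforms gave different values. Casq1, of fast fibres, had 3665 at the PBS outlet, 2849.7 in distal skin, 1697 under IL-13, 2859 under TSLP, and 2600.1 and 1243 in TGF-beta mice 1 and 2, with distal skin inside the outlet range. Casq2 had 787 at the PBS outlet, 145 in distal skin, 448 under IL-13, 546 under TSLP, and 935 and 477 in TGF-beta mice 1 and 2, so that distal skin was under the lowest outlet array and, alone of the arrays, under the filter (-1.90, SE 0.37, adjusted p = 0.0394). Cacng1, the gamma subunit of the voltage sensor, had 850.3 at the PBS outlet, 222 in distal skin, 597 under IL-13, 609 under TSLP, and 822 and 449.9 in TGF-beta mice 1 and 2, again with distal skin below all outlet arrays (-1.44, SE 0.31, adjusted p = 0.0471). The pore subunit of the same channel, Cacna1s, had 1019 at the PBS outlet, 563 in distal skin, 544 under IL-13, 592 under TSLP, and 652 and 467 in TGF-beta mice 1 and 2, with distal skin inside the outlet range (-0.16). The release channel Ryr1 differed by 0.32 and the pump inhibitor sarcolipin (Sln) by 0.80, both inside the outlet range. Triadin (Trdn), the partner of Ryr1, had 5744 at the PBS outlet, 3711 in distal skin, 3307 under IL-13, 4786 under TSLP, and 4935 and 2489 in TGF-beta mice 1 and 2. Distal skin was again inside the outlet range, and the probe sets of Trdn differ in sign here (-0.13 for the one used and 0.54 for another).

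The light chains, titin and Myom1 differed little between distal and mean outlet skin. Mylpf, the fast regulatory light chain, had 15449 at the PBS outlet, 15165 in distal skin, 15833 under IL-13, 12496 under TSLP, and 20475 and 13794 in TGF-beta mice 1 and 2. Distal skin was inside the outlet range (-0.02), as it was for the fast essential light chain Myl1 (0.03). Both lie at the upper end of the scale, where the brightest signal per array ran from 14048 to 21543, and whether their probes were saturated was not tested. The giant spring protein titin (Ttn) differed by 0.13. The M-line protein Myom1 had 2530.4 at the PBS outlet, 1917 in distal skin, 1536 under IL-13, 2403 under TSLP, and 2065 and 1187 in TGF-beta mice 1 and 2, with distal skin inside the outlet range (0.03). Myom2, the M-line protein of fast fibres, had 1754 at the PBS outlet, 1743 in distal skin, 724 under IL-13, 1829 under TSLP, and 1236 and 551 in TGF-beta mice 1 and 2, with the lowest signals under IL-13 and in TGF-beta mouse 2.

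At the Z-disc, where thin filaments are anchored, the fast and slow isoforms also gave different values. Myoz2, the slow and cardiac calsarcin, had 3265 at the PBS outlet, 389 in distal skin, 1852 under IL-13, 2719.9 under TSLP, and 3779 and 1225 in TGF-beta mice 1 and 2, and the distal signal was below every outlet array (-2.53, SE 0.52, adjusted p = 0.0445). Its fast counterpart Myoz1 had 3178 at the PBS outlet, 3986 in distal skin, 1783 under IL-13, 3092 under TSLP, and 2912 and 1441 in TGF-beta mice 1 and 2, with distal skin above every outlet array (0.75, adjusted p = 0.383). Of the alpha-actinins, which cross-link actin, Actn2 had 7216 at the PBS outlet, 1479 in distal skin, 3936 under IL-13, 6438 under TSLP, and 7046 and 2741 in TGF-beta mice 1 and 2. Distal skin was lowest here too (-1.77, SE 0.50), but the adjusted p of 0.0932 missed the threshold. Actn3, the alpha-actinin of fast fibres, had 6711 at the PBS outlet, 6794 in distal skin, 4634 under IL-13, 3148 under TSLP, and 4403 and 4819 in TGF-beta mice 1 and 2, with distal and PBS outlet skin alike. Tcap, which ties titin to the Z-disc, differed by 0.27, and for Ldb3, a Z-disc scaffold, probe sets gave -0.10 and 0.47, with opposite signs.

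Among the remaining members, the intermediate filament desmin (Des) had 5775 at the PBS outlet, 2750.1 in distal skin, 3944 under IL-13, 4619 under TSLP, and 5387 and 3695 in TGF-beta mice 1 and 2. Distal skin was below every outlet array (-0.74, adjusted p = 0.138), as it was for the small heat shock protein Cryab (-0.54) and for myoglobin, Mb (-0.42), none of which passed the threshold. Smooth muscle also makes desmin, and many cells make Cryab. Aqp4, the water channel of fast fibres, had 44.1 at the PBS outlet, 271 in distal skin, 26.0 under IL-13, 95.4 under TSLP, and 44.8 and 15.0 in TGF-beta mice 1 and 2, with a signal of 165 passed by distal skin alone (2.13, adjusted p = 0.0945). Smpx, a small protein of striated muscle, differed by 0.04.

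Genes outside the list also differed in both directions. Of 60 other fibre genes, 38 were tested, with a median of 0.08. In distal skin 7 exceeded the 2-fold size upwards (1.37% of all genes) and 5 downwards (3.9%). Higher were Myh4, the fastest adult myosin (2.68), Rpl3l, a muscle ribosomal protein (2.03), the subunits Phkg1 and Phka1 of the kinase that activates Pygm (1.78 and 1.10), Pdk4 (1.22), Ppp1r3c (1.17) and Cox7a1 (1.10). Lower were Flnc (-1.96), Csrp3 (-1.76), the fast oxidative myosin Myh2 (-1.40), Nrap (-1.31) and Lmod2 (-1.15). Phkg1 reached the filter only in distal skin, so its place here is partly set by the filter. Of the 38, Myh4 passed limma's threshold as higher (1.25% of all genes) and Csrp3, a Z-disc and stress protein, as lower (2.68%).

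Genes of regenerating muscle moved with this difference. Of 18 such genes, 11 were tested, and all 11 were lower in distal than in mean outlet skin (47% of all genes), with a median of -2.07. Of the 11, 3 passed limma's threshold as lower (2.68% of all genes). They were the embryonic and perinatal myosins Myh3 (-4.39) and Myh8 (-3.64) and the slow troponin Tnni1 (-4.14). Also at least 2-fold lower were Ankrd1 (-4.37), the embryonic light chain Myl4 (-2.75), the cardiac troponin Tnnt2 (-2.07), the myogenic factor Myog (-1.30) and Ncam1 (-1.11). Of the 11 genes, 9 reached the filter only at the outlet, these 8 and Chrna1, so the count, the median and the calls are partly set by the filter. Over the other genes, Actc1 and Myf6, the differences were -0.80 and -0.59. The summed signal of all 18 regenerating-muscle genes was 1948 in distal skin and ran from 5143 to 12747 at the outlet. The early markers Pax7, Myf5, Myod1 and Mymk stayed under 165 on all arrays, and Pax7 was at most at 17.2. The part of these genes in the members' differences was not tested.

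**Figure D3:**
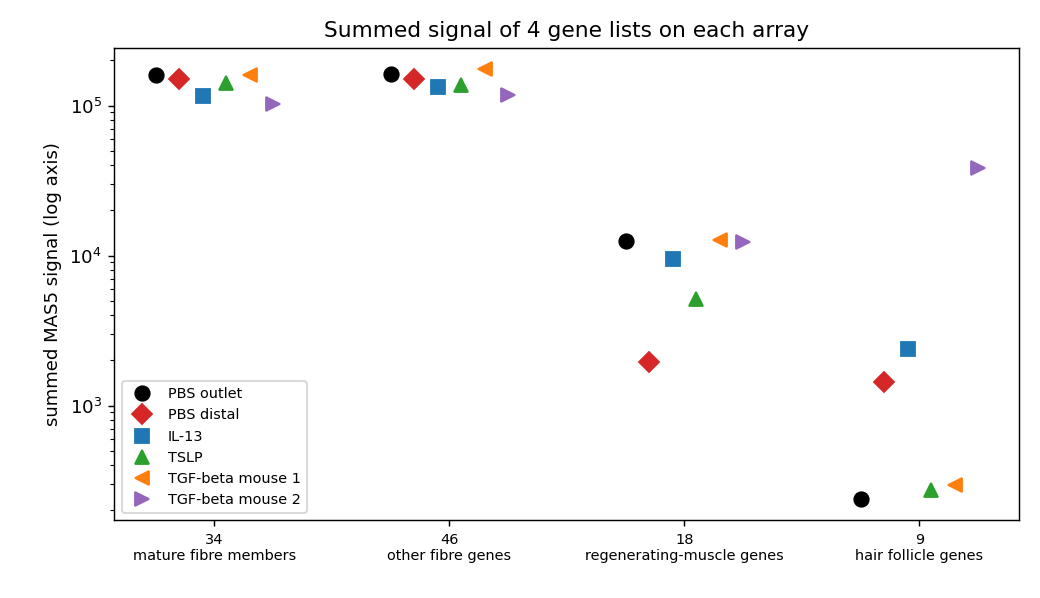
Summed MAS5 signal (log axis) of 4 gene lists on each of the 6 arrays, 1 point per array. The sums of the mature fibre members and of the other fibre genes lie close together on all arrays, distal skin is lowest for the 18 regenerating-muscle genes, and TGF-beta mouse 2 is highest for the 9 hair follicle genes.

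On each of the 4 cytokine arrays taken alone, most members were below the PBS outlet, while 15 of the 31 were below it on all 4. The differences were larger under IL-13 and in TGF-beta mouse 2 than in TGF-beta mouse 1 and under TSLP. Of 31 members, 22 were below it in TGF-beta mouse 1 (60.3% of all genes), 28 in TGF-beta mouse 2 (54.2%), 28 under IL-13 (60.2%) and 24 under TSLP (51.3%). The median difference from the PBS outlet array over 31 members tested was -0.15 in TGF-beta mouse 1, -0.92 in TGF-beta mouse 2, -0.75 under IL-13 and -0.20 under TSLP. Over all genes tested these medians were -0.06, -0.03, -0.07 and -0.01. The 4 values share 1 control array, and the PBS outlet array was itself the highest of the 5 outlet arrays for 15 of the 31 members (25.2% of all genes). TGF-beta mouse 2 was the lowest of the 5 for 23 members (24.1% of all genes), IL-13 for 4 (22.2%) and TGF-beta mouse 1 for 0 (20.3%).

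Under TGF-beta, most of the low values were those of mouse 2. Under limma with all 6 arrays in 5 groups, 0 of 31 members passed an adjusted p of 0.05 in either direction (0% of 7741 genes). The smallest adjusted p was 0.864. By an unadjusted limma p under 0.05, 5 lower and 0 higher members were past it (2.57% and 2.02% of genes). The spread in this fit comes from the 2 mice alone, with 1 residual degree of freedom. In mouse 2, 13 of 31 members were at least 2-fold lower than at the PBS outlet (1.45% of genes), in mouse 1 0 were (0.607%), and so 0 were in both (0.155%). No member was at least 2-fold higher in mouse 1 (0.349% of genes), mouse 2 (1.85%) or both (0.181%).

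Mouse 2 was at least 2-fold below mouse 1 for 9 of 31 members (0.698% of genes) and at least 2-fold above it for 0 (1.75%). The largest gap was in Apobec2, a muscle member of the cytidine deaminase family. Apobec2 had 4807 at the PBS outlet, 6397 in distal skin, 1878 under IL-13, 6701 under TSLP, and 4323 and 1075 in TGF-beta mice 1 and 2, so that TGF-beta mouse 2 and IL-13 stood apart from the other 4 arrays. Its difference from the PBS outlet was -0.15 in mouse 1 and -2.13 in mouse 2. Casq1 was at -0.49 and -1.54, Myom2 at -0.50 and -1.62, Ckmt2 at -0.26 and -1.51, and Actn2 at -0.03 and -1.39. Ldb3 had 3169 at the PBS outlet, 2071 in distal skin, 1743 under IL-13, 2773 under TSLP, and 2775 and 1291 in TGF-beta mice 1 and 2, with the same pair of arrays lowest. Pygm, by contrast, was lower in both mice, at -0.83 and -1.07, as were Pvalb at -0.58 and -0.81 and Actn3 at -0.61 and -0.48.

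Against the PBS outlet, the light chains did not share the low values of mouse 2. Both were still lower in mouse 2 than in mouse 1, at -0.57 for Mylpf and -0.38 for Myl1. Myl1 differed from the PBS outlet by 0.38 in mouse 1 and 0.00 in mouse 2, and Mylpf by 0.41 and -0.16. Sarcolipin was above the PBS outlet in mouse 2, at 0.33, and below it in mouse 1, at -0.24. Hair follicle genes moved with the difference between the mice. Of 10 such genes, 9 had a probe set and 8 were detected. The summed signal of the 9 was 295 in mouse 1 and 38272 in mouse 2. It was 239 at the PBS outlet, 2381 under IL-13, 273 under TSLP and 1425 in distal skin. The sum was thus highest on the 2 outlet arrays with the lowest fibre signal, while distal skin also had a higher sum than the PBS outlet beside a fibre signal of 151016. The part of these genes in the result was not tested.

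**Figure D4:**
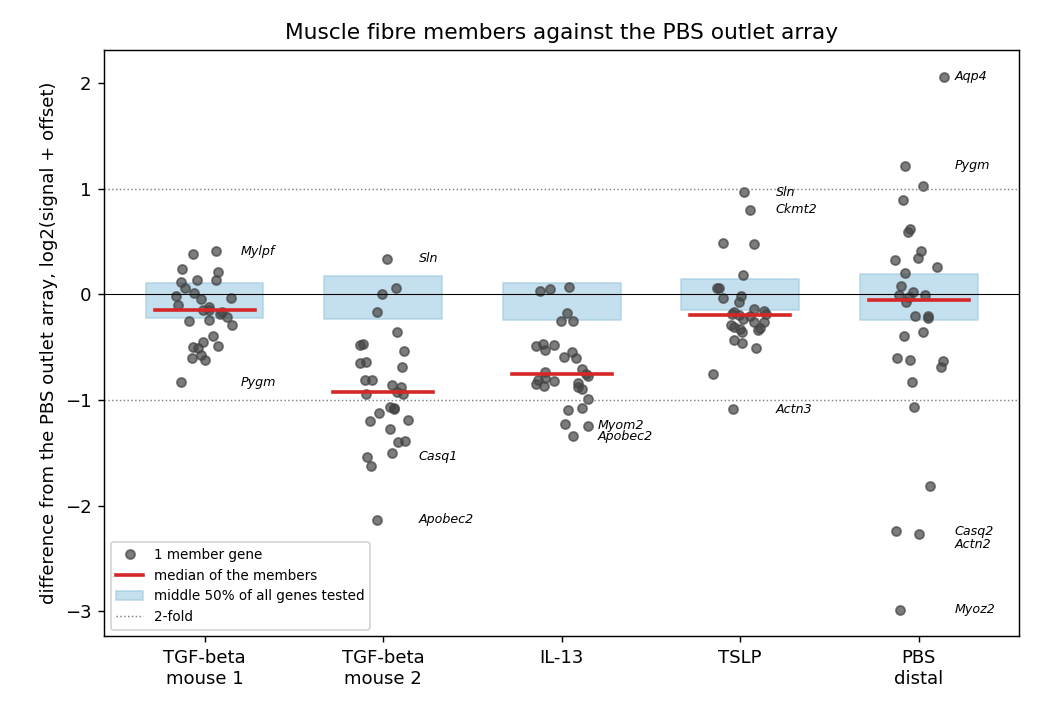
Difference of each member (points) from the PBS outlet array in log2(signal + 27.4) for the other 5 arrays, with the members' median (red line) and the middle 50% of all genes tested (blue). The medians of TGF-beta mouse 2 (-0.92) and IL-13 (-0.75) lie below the blue bands, and distal skin has the widest spread, from -2.98 for Myoz2 to 2.06 for Aqp4.

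Under IL-13, 5 of the 31 members were at least 2-fold lower, namely Apobec2 (-1.34), Myom2 (-1.25), Ckmt2 (-1.23), Casq1 (-1.10) and Pygm (-1.07). The same size was reached by 0.41% of 7562 genes. None was at least 2-fold higher (1.12% of genes). The fast calcium pump Atp2a1 was at -0.99, Tcap at -0.90 and Actn2 at -0.87. The light chains Myl1 (0.05) and Mylpf (0.04) were close to the PBS outlet. Atp2a2 was at 0.07 by the probe set used, while its other 3 probe sets were below the PBS outlet. With 1 array a group these differences have no replicate check. Using the spread between both TGF-beta animals in its place, limma called 0 of 31 members (0% of genes). An unadjusted limma p under 0.05 was reached by 6 (3.86% of genes).

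Under TSLP, single members stood apart on either side while the list as a whole stayed near PBS. Actn3 was the 1 member at least 2-fold lower than at the PBS outlet (-1.09; 0.447% of 7614 genes), and 0 were at least 2-fold higher (0.998%). Sarcolipin, which makes the calcium pump spend energy as heat, was highest under TSLP among all 6 arrays, at 0.96 from the PBS outlet. Ckmt2 was at 0.80, Pygm at 0.49 and Apobec2 at 0.48, and TSLP was the highest of the 5 outlet arrays for 7 members in all (25.2% of genes). Cacna1s was at -0.76 and Casq2 at -0.51. The spread between the TGF-beta animals gave 0 calls by limma among 31 members (0% of genes). Actn3 and Sln (2) had an unadjusted limma p under 0.05 (3.99% of genes).

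Against the PBS outlet array alone, distal skin had 3 members at least 2-fold higher (0.788% of 7617 genes) and 5 at least 2-fold lower (3.51%). Aqp4 was at 2.06, Pygm at 1.21 and Pvalb at 1.02. Lower were Myoz2 at -2.98, Actn2 at -2.27, Casq2 at -2.24, Cacng1 at -1.81 and Des at -1.06. With the spread between the TGF-beta animals, limma called 0 of 32 members (0.0263% of genes), and 10 had an unadjusted p under 0.05 (10.9%). These differences share the PBS outlet array with the comparisons of the cytokines, and distal and outlet skin differ in body site as well as in the pump, which cannot be told apart.

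Other probe sets of the members were read as a check. Of 20 further probe sets, 10 on 5 genes reached 165 on at least 1 array. In distal against PBS outlet skin all 10 had the sign of the main probe set. Against the mean of the outlet arrays, 1 probe set each of Trdn (0.54) and Ldb3 (0.47) had the opposite sign to the one used. For Atp2a2 the probe sets disagreed, and 3 of them had the opposite sign under IL-13 and under TGF-beta, so its outlet values have no settled direction. In distal skin all of its probe sets were below the outlet mean, from -0.70 to -0.01.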

How the data were processed

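MAS5 signals of 6 Affymetrix arrays were used as deposited intensities, 1 per probe set and array, and the submitters' processing notes name MAS5, with a version and genome build that are not given in the sources used here. Their trimmed means, without 2% at each end, lay between 500.16 and 500.2, and arrays were brought to their common mean. Of 22690 probe sets, 64 are controls, 20380 name 1 gene, 691 several, and 1555 are unnamed here. Symbols of 20351 were matched by gene number to RefSeq (GRCm38.p6).

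Values were taken as log2(signal + 27.4), the offset being the 25th percentile of all values. Tests used lmFit and eBayes (intensity trend on) of limma 3.58.1 in R 4.3.3, on all genes that passed the filter, and Benjamini-Hochberg adjustment. The step was tested on simulated data. TGF-beta was tested in a fit of 6 arrays in 5 groups, and distal skin against the 5 outlet arrays as 1 set. IL-13, TSLP and distal against PBS outlet skin have 1 array a group, so they are values with a 2-fold size rule.

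The members and all gene lists were chosen with earlier results of these data known. Per-array signals are given for members at least 2-fold apart in any comparison, in either TGF-beta mouse too, and for the member with the widest range in each role. Of the other fibre and regenerating-muscle lists, genes at least 2-fold apart between distal and mean outlet skin are named, up to 8 a direction. Myh7, the cardiac, satellite cell and early muscle markers, Chrna1, Actc1 and Myf6 are named outside this rule, to account for a list, and were chosen after their values were seen. Alternatives were 2 other offsets, quantile normalization, 2 filters, the mean of all probe sets, other moderation and leaving out arrays. 0 per-sample columns were left unused.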

Additional observations from a re-analysis of the deposited data

How the results depend on the processing

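The number of members past limma's threshold in distal against outlet skin was 4, and it became 2 with the higher offset (Pvalb and Aqp4), 2 with the mean of all probe sets (Pvalb and Casq2), 1 without the intensity trend (Pvalb), 0 without the filter on dim genes and 0 with distal skin against the mean of the 4 outlet groups. It was 4 with the lower offset, and 3 after quantile normalization or with every array above the filter. Leaving out 1 outlet array in turn, it ran from 0 (without IL-13) to 5 (without TGF-beta mouse 2), members at least 2-fold higher ran from 3 (without IL-13 or without TGF-beta mouse 2) to 7 and members at least 2-fold lower stayed at 4, and the median ran from 0.08 to 0.28. Over all 13 alternatives Pvalb was called in 9, with adjusted p from 0.019 to 0.0853, and Myoz2 in 4 of 13, with 0.0134 to 0.184. Casq2 was called in 5 of 12, with adjusted p from 0.0307 to 0.151, and Cacng1 in 3 of 13, with 0.0173 to 0.178. In every setting where the members' count of calls fell, the number called over all genes fell as well, except after quantile normalization. Without TGF-beta mouse 1 or 2 in turn, TGF-beta had 13 or 0 members at least 2-fold lower and a median of -0.92 or -0.15. Mouse 2 against mouse 1 had 5 members at least 2-fold lower at the higher offset, where it was 9. Of the differences of single members with a main value of at least 2-fold, 248 under the alternatives moved by less than 0.54, the SD between the members' medians in the mice and so a wide yardstick, 9 moved by more, and 0 changed sign. No paired analysis was possible because only the TGF-beta group has 2 arrays, so groups share fewer than 2 replicate numbers.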

Other observations

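A gene chosen after its values were seen was Fbxo32, a ubiquitin ligase of muscle atrophy. It had 149.8 at the PBS outlet, 425 in distal skin, 193 under IL-13, 394 under TSLP, and 249 and 232 in TGF-beta mice 1 and 2, so that distal skin and TSLP were highest. It was the highest of 37 other fibre genes tested under TSLP, at 1.25 from the PBS outlet, while the median of these genes was -0.19.

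Of the 11 regenerating-muscle genes, all were below the PBS outlet under TSLP, with a median of -0.93, while the 10 fast-fibre members tested had a median of -0.11. Under IL-13 the medians were -0.31 for the regenerating-muscle genes and -0.74 for the fast-fibre members, and in TGF-beta mouse 2 0.22 and -0.93. These values rest on single arrays and share the PBS outlet array, and their difference was not tested.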
